A study of Rattus norvegicus with 9 samples.

Results

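Lipid droplet proteins and lipases were examined as 10 of the 23479 gene symbols in a table of rat liver read counts. They were chosen by name, and each has its own row in the table. They are the perilipin genes PLIN2, PLIN3, PLIN4 and PLIN5, the Cide genes CIDEB and CIDEC, the lipase genes PNPLA2 and MGLL, the lipase inhibitor gene G0S2, and HSD17B13, which encodes a droplet-bound dehydrogenase of hepatocytes. The old group was liver of 4 male Wistar rats aged 24 months and the young group was liver of 5 male Wistar rats aged 6 months. Wistar is an outbred laboratory strain, so the animals of a group are not genetically identical. The labels name no treatment, diet or time of collection, and the groups of the series design are of separate animals. Polyadenylated RNA was sequenced with a kit that does not keep the strand of a transcript. Symbols are written as in the deposited table.

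A hepatocyte stores triglyceride in droplets, each a fat core under a single phospholipid layer that carries its own proteins. Perilipins coat the droplet and limit or direct the access of lipases, Cide proteins fuse small droplets into larger ones or pass lipid to nascent lipoprotein particles, and adipose triglyceride lipase, encoded by PNPLA2, takes the first fatty acid off a triglyceride. Its inhibitor is the G0S2 protein and its activator is the ABHD5 protein, while the MGLL enzyme splits monoglyceride at the end of the pathway. In liver these genes are known to respond to feeding and fasting, in part through the fatty acid receptor PPARA.

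None of the droplet genes that could be tested differed between old and young livers beyond the spread between animals. Of the 10 genes, 8 had enough counts to be tested, and 0 of these 8 passed edgeR's quasi-likelihood test at an adjusted p under 0.05, where 1.00% of all 12778 tested genes passed (0.657% higher and 0.344% lower in old livers). None of the 8 reached an unadjusted p under 0.05, which 15.9% of all tested genes did, and DESeq2 also called 0 of them, with a background of 4.74%. For 0 of the 8 were all old libraries above or all below the young ones, against 6.53% of tested genes (3.40% higher and 3.12% lower in old livers). Old livers had the higher fitted level for 4 of the genes and the lower for the other 4. The median log2 fold change over the 8 was 0.01, the same as over all tested genes (0.01), and all 8 lay between -0.5 and 0.5, as did 83.6% of tested genes. For 7 of the 8 the 95% interval of the change, unadjusted for the number of genes, lay within a 2-fold change in either direction, as it did for 76.3% of tested genes. G0S2 was the exception, with an interval from 0.377-fold to 1.88-fold. PLIN4 was too low to test and PNPLA2 had no count in any library.

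**Figure D1:**
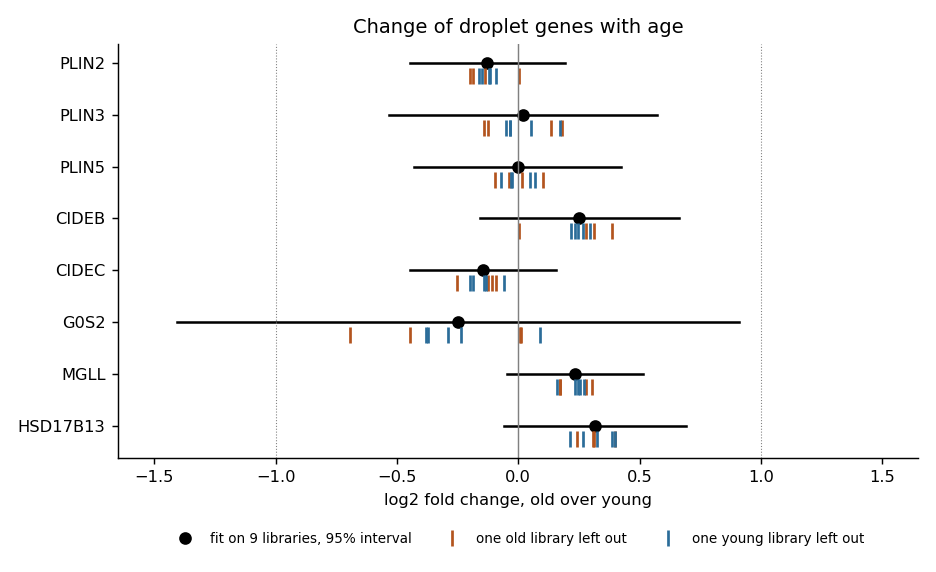
Fitted log2 fold change (old over young) of the 8 tested droplet genes on the horizontal axis, with the 95% interval as a line, and short ticks for fits with 1 old or 1 young library left out. Dotted lines mark a 2-fold change, and each interval crosses 0, with that of G0S2 from -1.41 to 0.91 the widest of these 8.

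The libraries held 18586798 to 32882704 counts in the old group and 18942191 to 25215805 in the young group, and 3 counts in a library, the limit taken for a count of 0, equalled 0.106 to 0.173 CPM. CPM here are counts scaled to library size after TMM normalisation. Hepatocyte markers were abundant, with albumin transcripts making up 13.5% to 20.5% of counts in old and 10.8% to 11.6% in young libraries. ALB was called higher in old livers (log2 0.80, edgeR adjusted p = 0.0423), the 1 edgeR call among 12 hepatocyte markers, of which 8 had a log2 fold change above 0. DESeq2, which called 4.74% of all genes, called 3 of the 12 higher and 1 lower, TAT (log2 -0.92, DESeq2 adjusted p = 0.0160). All counts of old 1 were even numbers, with 0 odd values there against at least 8112 in each other library. Old 1 also had the highest total, 32882704 counts, and the lowest limit, 0.106 CPM, although a count of 3 cannot occur there. The cause of the even counts was not tested. The 10 fat cell markers summed to 744 to 1387 CPM in old and 899 to 1313 CPM in young libraries, nearly all of it from THRSP and ADIPOR2, which liver expresses too. Of the fat cell hormones, LEP had no count, ADIPOQ lay at 0 to 0.138 CPM in old and 0 to 0.0486 CPM in young libraries, and RETN had 12 counts (0.554 CPM) in old 3 and 0 in each other library. PLIN1, the perilipin of adipocytes, had a single read in young 1. CFD lay at 1.76 to 13.6 CPM in old, highest in old 3, and 5.24 to 8.65 CPM in young libraries, and FABP4 lay at 0.518 to 1.13 CPM in old and 0.520 to 3.30 CPM in young libraries. Of 25 heart and skeletal muscle markers, 20 were tested, and their summed level was 4.17 to 5.91 CPM in old libraries, 12.3 CPM in young 1 and between 113 and 144 CPM in the other 4 young libraries. Most of the young 1 sum came from RYR2 (7.05 CPM) and MYOM1 (2.90 CPM). MYH6, MYH7, MYL2, ACTC1, CKM and CASQ2 had 0 counts in young 1, as in each old library. The muscle genes called lower in old livers were TNNT2, ANKRD1, MB and MYOM2 by edgeR, and 17 of the 20 were called lower by DESeq2. The 13 macrophage and Kupffer cell markers with a row summed to 107 to 977 CPM in old and 201 to 444 CPM in young libraries. Old 1 held the lowest sum and old 3 the highest. All 12 tested macrophage markers had a log2 fold change above 0, as did 6537 of all 12778 tested genes. Their median was 0.70, against 0.01 over all tested genes, and 0 of the 12 were called by edgeR or DESeq2. The 10 stellate cell markers summed to 444 to 567 CPM in old and 264 to 413 CPM in young libraries. Liver tissue mixes cell types, so fewer cells of a type and less RNA per cell cannot be told apart. The part of these cells in the droplet gene values was not tested.

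The promoters of 5 droplet genes are shown because they hold a sequence read by regulators of lipid genes. Nuclear receptors such as PPARA with its partner RXRA bind copies of AGGTCA, and basic helix-loop-helix factors bind the E-box CACGTG. Windows of 300 bases, from 250 before to 50 after the gene start, came from RefSeq on the GRCr8 rat assembly. All 10 genes had at least 1 window, and together they had 15. A match in any window counted for a gene, whereas the shares over all genes are by window, so these differ in unit. AGGTCA on either strand was present in windows of 3 of the 10 genes (G0S2, HSD17B13 and PLIN5) and in 16.2% of 33469 windows of all genes. CACGTG, which reads the same on both strands, was present for 2 of the 10 (PLIN2 and MGLL) and in 6.42% of all windows. The spaced repeat AGGTCANAGGTCA on either strand was in none of the windows of the 10 genes and in 0.0538% of all windows. The capitals mark the match, written TGACCT where it lies on the other strand. None of these 5 genes passed the test between ages, and a match is a run of letters, not a shown binding site.
G0S2 (chr13:107335899-107336198, minus strand): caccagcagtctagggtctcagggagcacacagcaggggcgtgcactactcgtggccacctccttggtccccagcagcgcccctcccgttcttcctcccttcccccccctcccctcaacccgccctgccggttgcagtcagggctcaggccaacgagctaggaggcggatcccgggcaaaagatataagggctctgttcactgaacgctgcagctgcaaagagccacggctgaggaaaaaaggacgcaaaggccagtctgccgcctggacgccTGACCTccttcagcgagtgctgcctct
HSD17B13 (chr14:6056539-6056838, plus strand): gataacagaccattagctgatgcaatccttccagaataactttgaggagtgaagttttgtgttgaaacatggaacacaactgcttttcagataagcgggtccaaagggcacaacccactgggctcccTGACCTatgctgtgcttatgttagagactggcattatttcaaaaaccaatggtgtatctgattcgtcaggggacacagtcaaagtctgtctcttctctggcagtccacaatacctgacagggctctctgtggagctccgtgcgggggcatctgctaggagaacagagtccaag
PLIN5 (chr9:1033235-1033534, minus strand): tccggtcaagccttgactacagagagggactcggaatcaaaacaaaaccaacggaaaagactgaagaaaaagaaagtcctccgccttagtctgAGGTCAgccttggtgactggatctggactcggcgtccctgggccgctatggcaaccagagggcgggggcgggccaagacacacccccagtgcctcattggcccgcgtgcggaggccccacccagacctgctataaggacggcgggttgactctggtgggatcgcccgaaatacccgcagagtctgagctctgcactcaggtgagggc
PLIN2 (chr5:106228969-106229268, minus strand): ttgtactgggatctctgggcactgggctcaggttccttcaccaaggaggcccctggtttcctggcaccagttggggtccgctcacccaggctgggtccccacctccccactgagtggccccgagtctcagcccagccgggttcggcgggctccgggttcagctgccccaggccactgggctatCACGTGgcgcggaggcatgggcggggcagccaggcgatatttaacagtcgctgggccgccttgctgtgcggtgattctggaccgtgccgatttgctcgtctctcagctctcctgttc
MGLL (chr4:122749186-122749485, plus strand): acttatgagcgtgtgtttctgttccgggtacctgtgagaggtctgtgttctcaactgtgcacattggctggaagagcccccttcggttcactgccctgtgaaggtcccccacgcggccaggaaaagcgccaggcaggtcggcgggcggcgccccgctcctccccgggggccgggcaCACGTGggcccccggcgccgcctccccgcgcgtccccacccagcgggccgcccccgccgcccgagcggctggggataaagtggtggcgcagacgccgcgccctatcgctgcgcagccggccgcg

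Perilipin levels of old and young livers overlapped for each gene. PLIN2, the coat protein of most hepatocyte droplets, which is stabilised by the fat it covers, lay at 232, 147, 211 and 237 CPM in the 4 old livers and at 232, 249, 231, 204 and 213 CPM in the 5 young livers, in order of their numbers. Old 2 was the lowest of the 9 libraries, and the other old libraries lay inside the young range. The means were 207 ± 41.5 CPM in old and 226 ± 17.6 CPM in young livers (SD, n = 4 and 5, and ± stands for the SE beside log2 fold changes). The log2 fold change was -0.13 with an SE of 0.14 (edgeR adjusted p = 0.687, interval 0.734-fold to 1.14-fold). Without old 2 the log2 fold change was 0.00. The coefficient of variation between animals was 20.1% in old and 7.81% in young livers, a difference in spread for which no test was made.

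PLIN3, the perilipin that moves between cytosol and small new droplets, lay at 30.6, 35.1, 62.0 and 60.8 CPM in the old livers and at 39.4, 39.6, 65.2, 50.7 and 37.6 CPM in the young livers. Old 1 and old 2 lay below all young livers, while old 3 and old 4 lay near the upper end of the young range. The log2 fold change was 0.02 ± 0.25 (edgeR adjusted p = 0.977), with an interval from 0.691-fold to 1.49-fold. Without old 3 and old 4 together it was -0.51 (adjusted p = 0.244). The rat assembly carries copies of PLIN3 annotated as pseudogenes, and reads shared with them could not be told apart, so its level is uncertain.

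PLIN5, which in oxidative tissues tethers droplets to mitochondria, lay at 3.39, 2.76, 3.09 and 2.25 CPM in old 1 to old 4 and at 2.71, 2.34, 2.64, 3.45 and 3.28 CPM in young 1 to young 5. The groups overlapped nearly completely, with means of 2.87 CPM in old and 2.88 CPM in young livers and coefficients of variation of 17.0% in old and 16.2% in young. The fitted ratio was 0.998-fold (edgeR adjusted p = 0.995), with an interval from 0.743-fold to 1.34-fold. Heart muscle is known to express PLIN5 strongly, and the summed muscle markers were highest in young 2 to young 5. Their part in the PLIN5 values was not tested.

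PLIN4, a perilipin of adipose tissue and muscle, had 0, 2, 3 and 0 counts in old 1 to old 4 and 2, 4, 3, 1 and 6 counts in young 1 to young 5. At most 0.138 CPM in old and 0.308 CPM in young libraries, it was near the limit of 3 counts and did not pass the low-count filter. PLIN4 overlaps the gene HDGFL2 in the rat assembly, so these few reads could belong to either. A difference was not detectable at this depth: without the filter the log2 fold change was -1.25 with an edgeR adjusted p of 0.563.

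**Figure D2:**
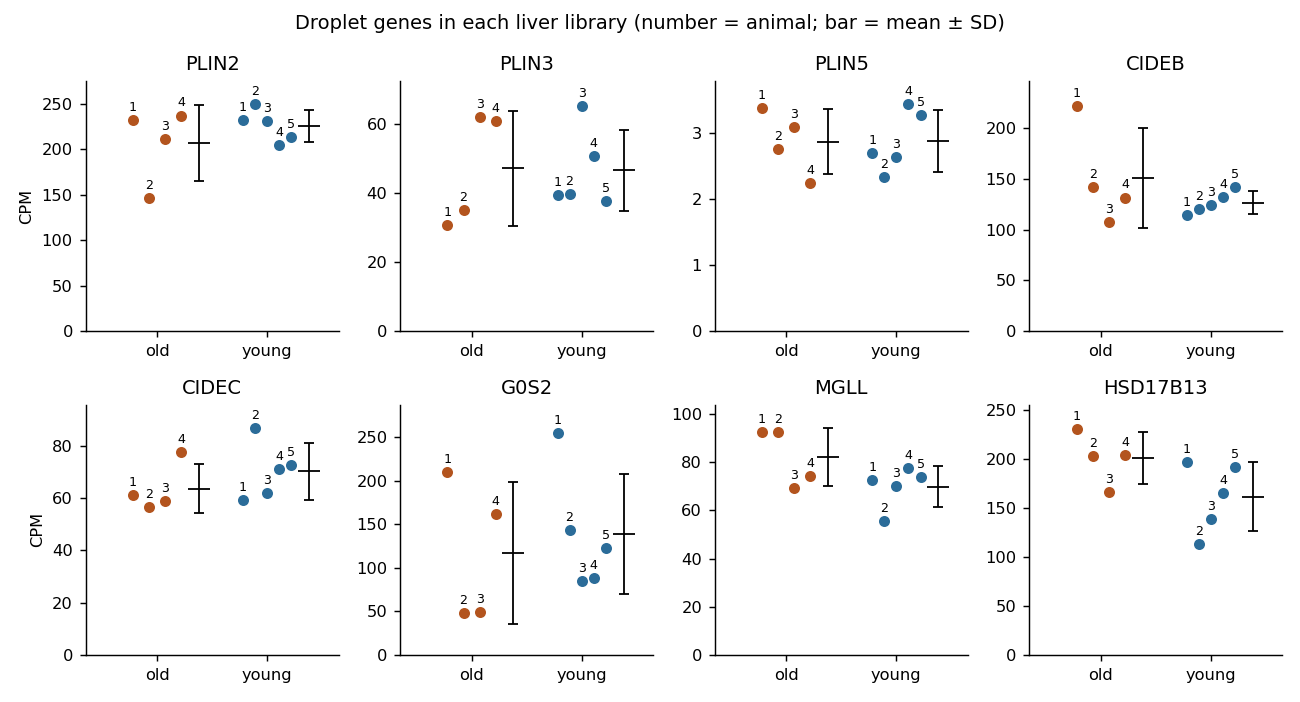
Level of each tested droplet gene in CPM (vertical axis, from 0) in the 4 old and 5 young livers, each point 1 animal with its number, and a bar with whiskers for the mean ± SD. Old and young points overlap in all 8 panels, and CIDEB in old 1 (222 CPM) and G0S2 in young 1 (255 CPM) sit highest in their panels.

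Of the Cide genes, CIDEB had a higher mean in old livers that rested on 1 animal. CIDEB, the hepatocyte member of the family that helps load lipid into very low density lipoprotein, lay at 222, 143, 107 and 132 CPM in old 1 to old 4 and at 114, 120, 125, 133 and 143 CPM in young 1 to young 5. Old 1 stood above the other libraries, old 2 was level with the highest young liver, old 4 lay inside the young range and old 3 was the lowest of all 9. The means were 151 ± 49.7 CPM in old and 127 ± 11.1 CPM in young livers, with a log2 fold change of 0.25 ± 0.19 (edgeR adjusted p = 0.529, interval 0.895-fold to 1.58-fold). Without old 1 the log2 fold change was 0.00 (adjusted p = 0.989). The coefficient of variation was 32.9% in old and 8.76% in young livers. Old 1 is the library of even counts and held the lowest sum of macrophage markers, 107 CPM. CIDEB overlaps the gene NOP9 in the rat assembly, so reads in the overlap could belong to either gene.

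CIDEC, which fuses droplets and is best known from fat tissue and fatty liver, lay at 61.4, 56.7, 59.1 and 77.7 CPM in old 1 to old 4 and at 59.3, 87.1, 62.1, 71.2 and 72.6 CPM in young 1 to young 5. The lowest were old 2 and old 3, the highest was young 2, and the groups overlapped. The log2 fold change was -0.14 ± 0.14 (edgeR adjusted p = 0.624), with an interval from 0.735-fold to 1.11-fold. Within each library, CIDEC counts were 0.276, 0.397, 0.550 and 0.589 of CIDEB counts in old 1 to old 4 and 0.519, 0.726, 0.498, 0.536 and 0.509 of them in young 1 to young 5. This ratio depends on transcript length and was used between libraries only. Old 1 and old 2 lay under all young libraries for it and old 3 and old 4 lay inside the young range.

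G0S2 varied more between animals than the other 7 tested droplet genes, by 5.36-fold between the highest and lowest library. It lay at 210, 47.6, 49.0 and 161 CPM in old 1 to old 4 and at 255, 144, 85.4, 88.6 and 123 CPM in young 1 to young 5. Old 2 and old 3 lay below all young livers, whereas young 1 was the only young liver above old 1 and old 4. The means were 117 ± 81.9 CPM in old and 139 ± 69.3 CPM in young livers, and the log2 fold change was -0.25 ± 0.51 (edgeR adjusted p = 0.835). Its sign followed single animals: the value was 0.09 without young 1, 0.01 without old 2 or without old 3 and -0.69 without old 1. The other 7 tested genes spanned 1.54-fold to 2.13-fold over the 9 libraries.

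Over all 9 libraries and 7116 genes of at least 10 CPM, the profiles nearest to that of G0S2 were those of SEZ6, RGD1307603 and HES1. Their centred log2 levels differed from those of G0S2 by a root mean square of 0.44, 0.46 and 0.49. For PLIN3 the nearest were CLN8, TM7SF2 and CKAP5, at 0.19, 0.20 and 0.20, and for HSD17B13 they were STARD5, PGM1 and AMBP, at 0.13, 0.15 and 0.16. These 3 droplet genes were taken because their levels spread most between libraries.

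PNPLA2, the gene of adipose triglyceride lipase, was listed at 0 in all 9 libraries, and its neighbours on the chromosome were nearly as empty. In the gene order of the GRCr8 assembly, an unbroken run of 11 protein-coding genes from GATD1, listed under its older symbol PDDC1, to CHID1 had fewer than 10 counts in every library, and 8 of the 11 had none at all. The run includes RPLP2, a ribosomal protein gene that every cell uses, with 6, 0, 5 and 1 counts in old 1 to old 4 and 1, 0, 4, 2 and 0 counts in young 1 to young 5. It also includes POLR2L, which encodes a subunit of RNA polymerases, with at most 8 counts in a library, and the tetraspanin genes CD151 and TSPAN4, with none. Just outside the run, TALDO1 had 1628 to 3202 counts in old and 2006 to 2829 in young libraries, and AP2A2 had 2063 to 3042 in old and 2407 to 2959 in young libraries. The zeros of PNPLA2 therefore give no level of the lipase and no comparison between ages, and no ratio of G0S2 to PNPLA2 could be formed. Why these rows are empty was not tested. In all, 5408 of the 23479 symbols had no count in any library.

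**Figure D3:**
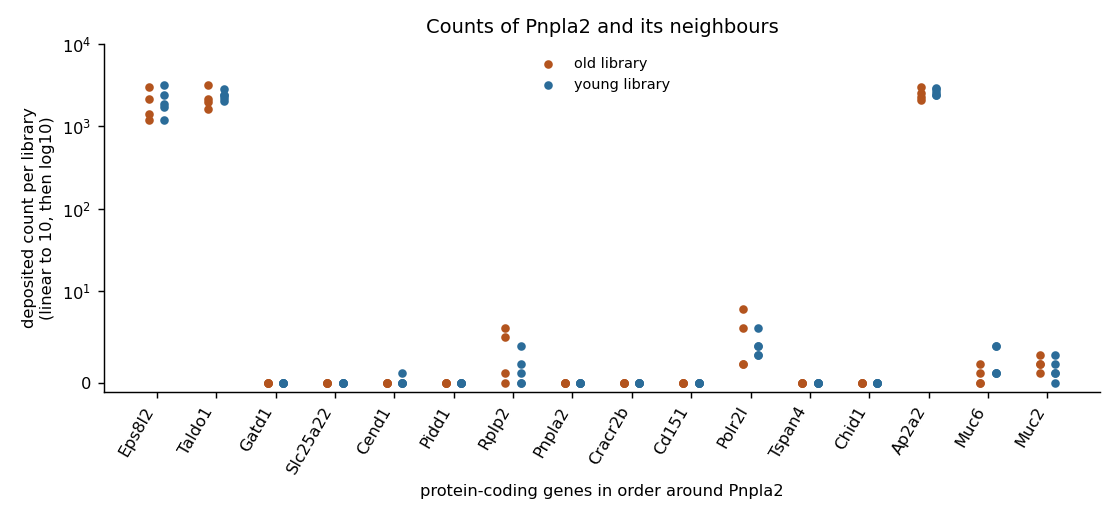
Deposited counts per library (vertical axis, linear to 10 and logarithmic above) for the protein-coding genes around PNPLA2, in their order along the chromosome, with each point 1 old or 1 young library. The 11 genes from GATD1 to CHID1 stay at 8 counts or fewer, and TALDO1 and AP2A2 on either side hold 1628 to 3202 counts in each library.

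MGLL and HSD17B13 had the smallest p-values of the 8 tested genes, and neither passed. MGLL, the lipase that frees the last fatty acid and also breaks down the endocannabinoid 2-arachidonoylglycerol, lay at 92.5, 92.5, 69.5 and 74.2 CPM in old 1 to old 4 and at 72.4, 55.6, 70.1, 77.6 and 73.8 CPM in young 1 to young 5. Old 1 and old 2 stood above all young livers and old 3 and old 4 lay among them. The means were 82.1 ± 12.1 CPM in old and 69.9 ± 8.42 CPM in young livers. The log2 fold change was 0.23 ± 0.13 (edgeR adjusted p = 0.400). With library totals as the only scaling the value was 0.05. That scaling put the median of all tested genes at -0.17, so the value of MGLL stood above that median as well.

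HSD17B13, a droplet protein that oxidises retinol in vitro, lay at 231, 203, 166 and 205 CPM in old 1 to old 4 and at 197, 114, 139, 166 and 192 CPM in young 1 to young 5. Old 1, old 2 and old 4 were above all young livers, and old 3 lay inside the young range. The means were 201 ± 26.7 CPM in old and 162 ± 35.3 CPM in young livers. The log2 fold change was 0.32 ± 0.17 (edgeR adjusted p = 0.396), with an interval from 0.959-fold to 1.62-fold. Its neighbour and relative HSD17B11, also a droplet protein, lay at 540, 512, 327 and 527 CPM in old 1 to old 4 and at 359, 450, 319, 371 and 490 CPM in young 1 to young 5. Old 3 was the lowest old library for both genes, and HSD17B11 did not pass either (log2 0.26 ± 0.18, edgeR adjusted p = 0.4996).

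Across the 8 genes the libraries did not keep 1 order. Old 1 held the highest level of CIDEB, MGLL and HSD17B13 and the lowest of PLIN3. Old 2 held the lowest level of PLIN2, CIDEC and G0S2. Young 2 held the highest level of PLIN2 and CIDEC and the lowest of MGLL and HSD17B13.

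**Figure D4:**
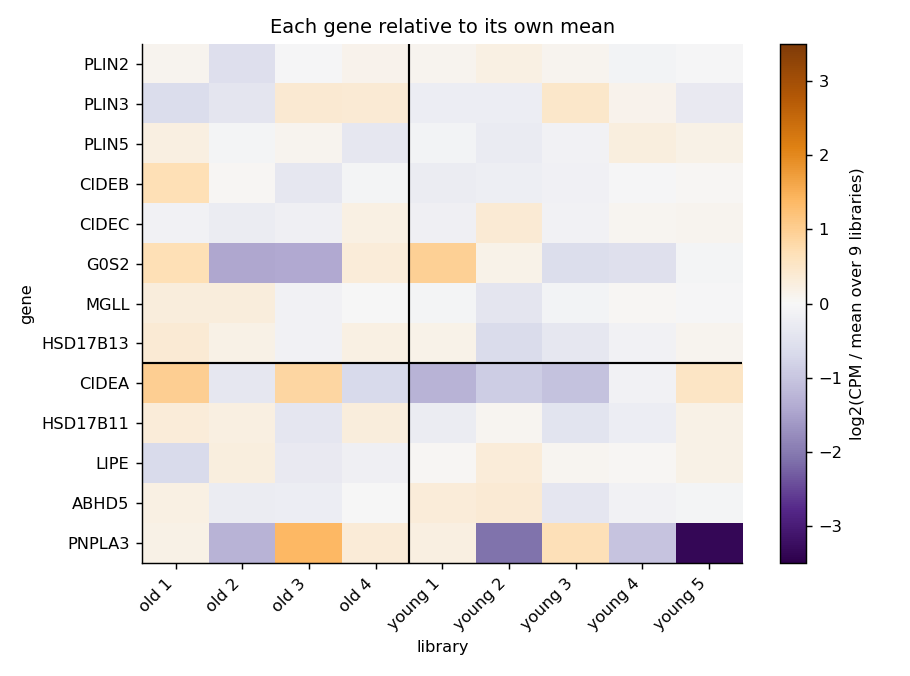
Level of the 8 tested droplet genes (upper rows) and 5 further genes of the pathway (lower rows) in each library, as log2 of CPM over the gene's own mean of 9 libraries, with old libraries left of the line and young ones right of it. The strongest colours are those of PNPLA3, G0S2 and CIDEA, and they do not follow the line between old and young.

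Other genes of the droplet pathway, from lists assembled by function, held no gene past the edgeR threshold. Of 14 tested coat and biogenesis genes 0 rose and 0 fell, with a median log2 fold change of 0.07, and of 11 tested lipolysis and lipophagy genes 0 rose and 0 fell, with a median of -0.05, beside a median of 0.01 over all tested genes. At an unadjusted edgeR p under 0.05 there were 0 of the 14 and 3 of the 11, against 15.9% of all tested genes. Those 3 were ABHD12, DDHD2 and LIPA, and DESeq2, which called 4.74% of all genes, called ABHD12 alone (adjusted p = 0.0232). ABHD12, a serine hydrolase that acts on monoglyceride and lysophospholipids, lay at 15.6 to 17.5 CPM in old and 19.2 to 24.1 CPM in young livers, with no overlap (log2 -0.34 ± 0.09, edgeR adjusted p = 0.106). DDHD2, a triglyceride hydrolase known mainly from brain, lay at 10.3 to 17.2 CPM in old and 16.3 to 25.9 CPM in young livers, with an overlap of old 3 (log2 -0.55 ± 0.17, adjusted p = 0.156). LIPA, the acid lipase of lysosomes, lay at 357, 227, 246 and 496 CPM in old 1 to old 4 and at 174 to 256 CPM in young livers (log2 0.61 ± 0.23, adjusted p = 0.234). All 3 missed edgeR's threshold over all genes tested.

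The partners of adipose triglyceride lipase were measured although the lipase was not. ABHD5, its activator, lay at 43.6 to 60.4 CPM in old and 40.3 to 68.1 CPM in young livers (log2 -0.11 ± 0.17, edgeR adjusted p = 0.767). LIPE, hormone-sensitive lipase, which follows it in fat cells, lay at 3.81 to 7.19 CPM in old and 6.14 to 7.46 CPM in young livers (log2 -0.32 ± 0.18, adjusted p = 0.406), and only old 2 was not below all young livers. PNPLA3, a relative of the lipase that is induced by lipogenic signals, lay at 68.7, 25.3, 156 and 77.2 CPM in old 1 to old 4 and at 71.0, 14.1, 96.7, 29.6 and 5.95 CPM in young 1 to young 5. It spanned 26.2-fold over the 9 libraries, and the old and young ranges overlapped (log2 0.91 ± 0.76, adjusted p = 0.582). CIDEA, the third Cide gene, normally a gene of brown fat that appears in fatty liver of mice, lay at 28.6, 11.2, 26.4 and 8.82 CPM in old 1 to old 4 and at 5.98, 7.79, 6.98, 13.3 and 20.9 CPM in young 1 to young 5. Old 1 and old 3 were highest, but young 4 and young 5 exceeded old 2 and old 4 (log2 0.78 ± 0.46, adjusted p = 0.442). HILPDA, a small droplet protein that also inhibits adipose triglyceride lipase, lay at 2.82 to 6.42 CPM in old and 2.50 to 4.08 CPM in young livers (log2 0.37 ± 0.24, adjusted p = 0.469).

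Regulators of droplet genes reached larger log2 fold changes than the 8 droplet genes, none of them past the edgeR threshold. Of 10 tested regulators 0 rose and 0 fell, and 4 had an unadjusted p under 0.05, which 15.9% of all tested genes reached. DESeq2, with 4.74% of all genes called, called PPARGC1A higher and PPARG lower in old livers (adjusted p = 0.00603 and 0.0212). PPARGC1A, the coactivator of fasting metabolism, had the largest log2 fold change of these 10, at 1.11 ± 0.26, and lay at 1.83 to 3.53 CPM in old and 0.923 to 1.56 CPM in young livers with no overlap (edgeR adjusted p = 0.0729). PPARG, the receptor that drives fat storage, lay at 3.53, 4.60, 2.49 and 1.60 CPM in old 1 to old 4 and at 6.48, 4.08, 5.43, 8.50 and 8.16 CPM in young 1 to young 5 (log2 -1.10 ± 0.32, adjusted p = 0.134). Only old 2 was above the lowest young library for PPARG. The other regulators with an unadjusted edgeR p under 0.05 were PPARD and MLXIPL. PPARD lay at 21.6 to 42.2 CPM in old and 8.54 to 27.8 CPM in young livers (log2 0.80 ± 0.31, adjusted p = 0.259). MLXIPL lay at 79.4 to 157 CPM in old and 133 to 213 CPM in young livers (log2 -0.47 ± 0.20, adjusted p = 0.285). PPARA lay at 76.5 to 133 CPM in old and 94.6 to 144 CPM in young livers (log2 -0.27 ± 0.19, adjusted p = 0.515). Of 13 tested PPARA target genes outside the droplet set 0 rose and 0 fell, with a median of -0.06. CPT1A, which gates the entry of fatty acids into mitochondria, had the most negative log2 fold change among them, at 90.9 to 166 CPM in old and 162 to 463 CPM in young livers (log2 -1.13 ± 0.32, adjusted p = 0.134). UCP2, a mitochondrial carrier that macrophages also express, lay at 15.2, 12.5, 45.9 and 14.2 CPM in old 1 to old 4 and at 8.16 to 13.2 CPM in young livers (log2 1.14 ± 0.38, adjusted p = 0.189). It was highest in old 3, which also held the highest sum of macrophage markers (977 CPM), whose part in this value was not tested. DESeq2 called CPT1A lower and UCP2 higher (adjusted p = 0.0116 and 0.0434), which is 2 of the 13 targets beside 4.74% of all genes. An unadjusted edgeR p under 0.05 was reached by 4 of the 13 (CPT1A, UCP2, FGF21 and PDK4), beside 15.9% of all tested genes. FGF21 had the most positive log2 fold change of the 13, at 0.805 to 10.2 CPM in old and 0.755 to 3.05 CPM in young livers (log2 1.44 ± 0.61, edgeR adjusted p = 0.288). PDK4 lay at 29.0 to 59.7 CPM in old and 21.5 to 38.5 CPM in young livers (log2 0.64 ± 0.22, adjusted p = 0.194).

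**Figure D5:**
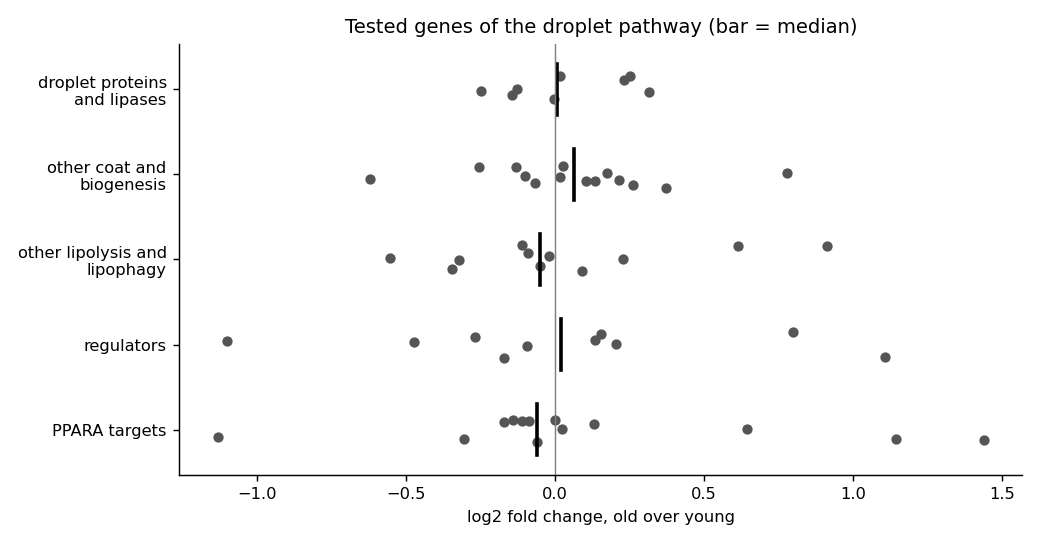
Fitted log2 fold change (old over young, horizontal axis) of the tested genes of the droplet set and of the other pathway lists, each point 1 gene and each bar a list's median. The 8 droplet proteins and lipases lie between -0.25 and 0.32, while regulators reach -1.10 and 1.11 and PPARA targets -1.13 and 1.44. In these lists 0 genes passed the test.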

How the data were processed

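The deposited table holds unnormalized read counts for each gene, as whole numbers, in a column for each of the 4 old and 5 young rats. Per the submitters' processing notes reads were aligned with BWA, while build, annotation and counting tool are not given in the sources used here. The labels' protocols name an RNeasy kit for extraction and TruSeq RNA for library preparation, so overlapping genes on opposite strands share reads.

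Genes were kept with edgeR's filterByExpr (minimum count 10, minimum total 15), which left 12778 of 18071 genes with any count. A quasi-likelihood model with TMM scaling was fitted to all 9 libraries, and p-values were adjusted by Benjamini-Hochberg over all tested genes, with 0.05 as the threshold. Standard errors and 95% intervals came from the F statistic. Tests are two-sided, and the fit was tested on simulated data. Log2 CPM used a prior count of 2. The count floor covers counting error only. Tools were edgeR 4.0.16 and DESeq2 1.42.0 with limma 3.58.1 in R 4.3.3, and matplotlib 3.10.9 for plots.

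The 10 genes and all lists were chosen with earlier results of these data known. The text names the 10 genes, list genes past the threshold, apart from a result that is not reported here, and a fixed set of partners. Further pathway genes and the neighbours of PNPLA2 were chosen after their values were seen. Symbols were matched to RefSeq on GRCr8 for names, gene order and promoters, and all 10 matched. Alternatives were other scalings and filters, DESeq2, limma-voom, a block for the replicate number, leaving out libraries, and old 1 halved.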

Additional observations from a re-analysis of the deposited data

Results flagged for a closer look

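Sets of values were examined for 25 of the named genes past the low-count filter, each set of 1 gene in 1 age group. Among these 50 sets, 4 held an animal set apart from the rest of its group by a gap that is large relative to the group's range. About 1 in 20 such sets is picked out by chance. HSD17B11 lay at 327 CPM in old 3, against 512 to 540 CPM in the other old livers. CPT1A lay at 463 CPM in young 2, against 162 to 230 CPM in the other young livers. UCP2 lay at 45.9 CPM in old 3, against 12.5 to 15.2 CPM in the other old livers. CFD lay at 8.65 CPM in young 1, against 5.24 to 5.54 CPM in the other young livers. None of the 8 tested droplet genes held such an animal in either group.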

How the results depend on the processing

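Under all 20 alternatives 0 of the droplet genes were called, and CIDEB, MGLL and HSD17B13 kept a positive log2 fold change in each, from 0.00 to 0.52, 0.05 to 0.40 and 0.04 to 0.42. Values near 0 changed sign: PLIN2 had 0.00465 without old 2. PLIN3 had -0.14 with library totals only, -0.0186 with limma-voom, -0.0880 with the replicate block, -0.51 without old 3 and old 4, and -0.14 to 0.18 with 1 library left out. PLIN5 had 0.00144 with median-ratio scaling, 0.000341 with TMM without the 10 most abundant genes, 0.00336 with DESeq2, 0.0149 with limma-voom, 0.0453 with the replicate block, 0.10 without old 3 and old 4, 0.10 without young 2 to young 5, and -0.0943 to 0.10 with 1 library left out. CIDEC had 0.11 without young 2 to young 5, a fit in which young 1 is assumed to vary like the old libraries. With 1 library left out PLIN2 ranged from -0.20 to 0.00465 and G0S2 from -0.69 to 0.0886. Without young 2 to young 5, G0S2 had -1.11 and PLIN3 0.26. Over all genes, 128 calls became 280 with library totals only, 688 with DESeq2, 61 with limma-voom, 43 with the replicate block, 0 without young 2 to young 5 (429 at an unadjusted p under 0.05, no other tool run) and 30 to 201 with 1 library left out. With totals only, 72 were higher and 208 lower in old livers, against 84 and 44. Same-numbered old and young libraries had correlations of deviations of -0.08, 0.09, 0.32 and -0.17. Only old 3 correlated best with its own number. So few values cannot show whether animals were handled together by number. The causes of the shifts between settings were not tested. PLIN4 had at most 6 counts in a library.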
